A study of Mus musculus with 4 samples.

Results

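The genes described here are the Wnt ligands, the Frizzled receptors (Fzd) and the secreted inhibitors of the Sfrp and Dkk families. They were taken as all probes, controls left out, whose gene name begins with Wnt, Fzd, Sfrp or Dkk followed by a digit. The array held 52 such probes for 37 genes, of 26793 gene names in all: 19 Wnt, 10 Fzd, 4 Sfrp and 4 Dkk genes. Of the 37 genes, 14 had more than 1 probe.

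Wnt proteins are secreted ligands that carry a lipid, by which they dock on the outer domain of a Frizzled receptor. Together with the co-receptors Lrp5 and Lrp6 this stops the breakdown of β-catenin, which then acts with Tcf and Lef factors in the nucleus, whereas other Wnt and Frizzled pairs act on cell shape, polarity and calcium without β-catenin. Sfrp proteins resemble the outer domain of Frizzled and bind Wnt ligands, and Dkk proteins bind Lrp5 and Lrp6. In the liver, Wnt ligands from endothelial cells around the central vein maintain the pericentral identity of hepatocytes, and the pathway has also been studied in the activation of stellate cells, the cells that deposit scar matrix.

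RNA came from IMS/N cells, hepatic stellate cells of normal 129/Sv mice immortalized with SV40, which are 1 cell line and carry a viral oncogene in all 4 conditions. The study asked whether adipose tissue-derived stem cells (ADSCs) restore stellate cells activated by palmitic acid (PA), a saturated fatty acid. The conditions were a control with neither treatment, PA, medium from cultured ADSCs (ADSC medium), and PA and ADSC medium together, with 1 one-colour Agilent array each. The ADSCs came from inguinal fat of male C57BL/6J mice aged 8 to 10 weeks. The sources used here do not state the dose and duration of PA, nor what cultures without PA or without ADSC medium received instead, so ADSC products cannot be told apart from their base medium.

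No condition had a replicate, so every difference below is between 2 arrays and carries no p-value; the number of arrays limits the precision. Levels are quantile-normalized log2 intensities, differences are on the log2 scale, and a gene was counted as higher or lower from 1.5-fold on. The 4 arrays lay on 1 slide, and 67.5% to 70.0% of their probes were well above background by the scanner software's own flag. Of 12 stellate or myofibroblast markers 8 were well above background, among them Vim, Col1a1 and Acta2, while Lrat, Reln, Hand2 and Gfap were not on any array. Alb, Apoa1 and Ttr (hepatocytes), Adgre1 and Clec4f (Kupffer cells), Pecam1 and Cdh5 (endothelium), Epcam (biliary epithelium) and Adipoq (adipocytes) were not well above background on any array. Other markers on those lists were, on all 4 arrays: 1 of 6 for hepatocytes (Hnf4a), 5 of 8 for macrophages (Cd14, Cd68, Csf1r, Lyz2 and Marco), 4 of 8 for endothelium (Kdr, Vwf, Tek and Stab2), 4 of 6 for biliary epithelium (Krt7, Krt19, Sox9 and Spp1) and 5 of 9 for adipose cells. As this is RNA from whole cultures, fewer cells of a type and less RNA per cell cannot be told apart.

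The sequences of 4 probes bear on how the values below can be read. The first pair is shown because a Frizzled probe on chromosome 1 and another on chromosome 11 carry nearly the same bases. Capitals mark bases identical in both at the best alignment without gaps, 42 of the 50 that overlap (84%). The sequences are those deposited with the arrays, 5′ to 3′ on the plus strand of mm9. The Fzd2 probe lies at chr11:102467613-102467672 and the Fzd7 probe at chr1:59541367-59541426.
Fzd2: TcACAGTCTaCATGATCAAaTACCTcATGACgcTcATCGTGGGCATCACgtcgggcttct
Fzd7: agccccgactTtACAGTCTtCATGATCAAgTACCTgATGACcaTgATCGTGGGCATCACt
Among 1310 pairs of member probes of different genes, the median was 20 identical bases, and this was the only pair with at least 40. The longest shared run was 14 bases. Whether the Fzd7 probe also takes up Fzd2 RNA was not tested.

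The second pair is shown because each probe crosses an intron, so genomic DNA would not match it over its full length. The Wnt4 probe of 60 bases spans 569 bases of the genome, chr4:136851690-136852258, and this Wnt5a probe spans 3963 bases, chr14:29331746-29335708, both on the plus strand of mm9.
Wnt4: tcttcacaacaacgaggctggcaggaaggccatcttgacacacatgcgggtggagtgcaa
Wnt5a: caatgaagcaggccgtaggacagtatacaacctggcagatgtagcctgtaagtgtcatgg
No capitals are set in this pair. The positions are those given in the array files, and no annotation of exons on mm9 was used here.

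Most ligands and all Frizzled genes gave signal in this line, and no Dkk gene did. Of the 37 genes, 27 (73.0%) were well above background on all 4 arrays, 2 on some and 8 (21.6%) on none, beside 64.8% and 29.3% of all 26793 gene names. By family, 13 of 19 Wnt genes, 10 of 10 Fzd genes and 4 of 4 Sfrp genes were well above background on all arrays. The 8 without such signal were Wnt3a, Wnt8a, Wnt8b, Wnt16, Dkk1, Dkk2, Dkk3 and Dkk4. For these 8 the arrays give only that the signal was not well above background; it is not shown that the genes are silent.

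**Figure D1:**
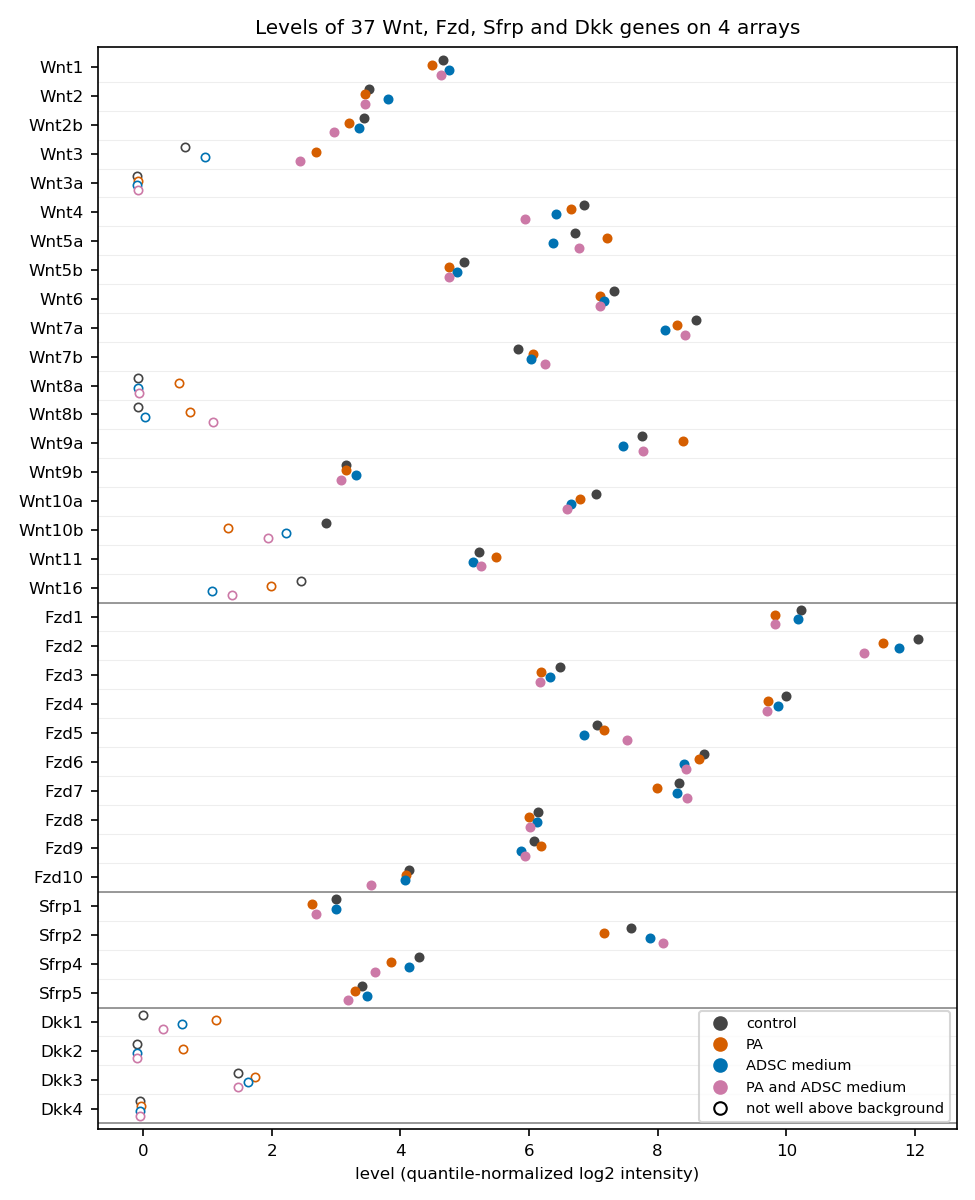
Level of each member gene (quantile-normalized log2 intensity, horizontal axis) on the 4 arrays, grouped by family from top to bottom, 1 point per array and colour per condition; open points mark arrays on which the probe was not well above background. All Fzd and Sfrp genes are filled on every array, and the 4 Dkk genes are open on every array.

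The members were compared in 5 pairs of arrays, of which several share an array, so the comparisons are not independent of each other. PA against control gave 29 members with a value, of which 1 was higher (Wnt9a) and 1 lower (Wnt10b), beside 2.92% of 18209 genes higher and 3.27% lower. ADSC medium against control gave 28, of which 0 were higher and 0 lower, beside 2.31% and 1.29% of all genes; the members ranged from -0.55 to 0.29. PA and ADSC medium against control gave 29, of which 0 were higher and 5 lower (Wnt4, Wnt10b, Fzd2, Fzd10 and Sfrp4), which is 17.2% lower beside 3.67% of all genes, with 4.68% of all genes higher. PA and ADSC medium against PA gave 28, of which 1 was higher (Sfrp2) and 2 lower (Wnt4 and Wnt9a), beside 5.25% and 3.72% of all genes. PA and ADSC medium against ADSC medium gave 28, of which 1 was higher (Fzd5) and 0 lower, beside 3.54% and 3.14%. The share of members past 1.5-fold thus stood well away from that of all genes only for the lower side of PA and ADSC medium against control, and there by 5 genes, 1 of them known as a bound. With the normexp background, a different way of subtracting background light, only Fzd2 of the 5 was still past 1.5-fold. The shares of all genes were then 2.08% higher and 0.782% lower. This setting also adds an offset of 50 to every intensity before log2, which by construction shrinks differences of dim probes. Here and below, a smaller value with normexp for a dim gene, such as Wnt10b, Fzd10 or Sfrp4, cannot tell background from offset. The balance of all genes moved in the other comparisons too. With normexp it was 1.20% higher and 0.893% lower for PA against control, 0.585% and 0.116% for ADSC medium against control, 1.84% and 0.542% for both against PA, and 1.35% and 0.776% for both against ADSC medium. With the 75th percentile scaling, both against PA had 6.91% and 2.48%. Both against control then had 4 members lower, without Fzd10, beside 3.16% of all genes.

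**Figure D2:**
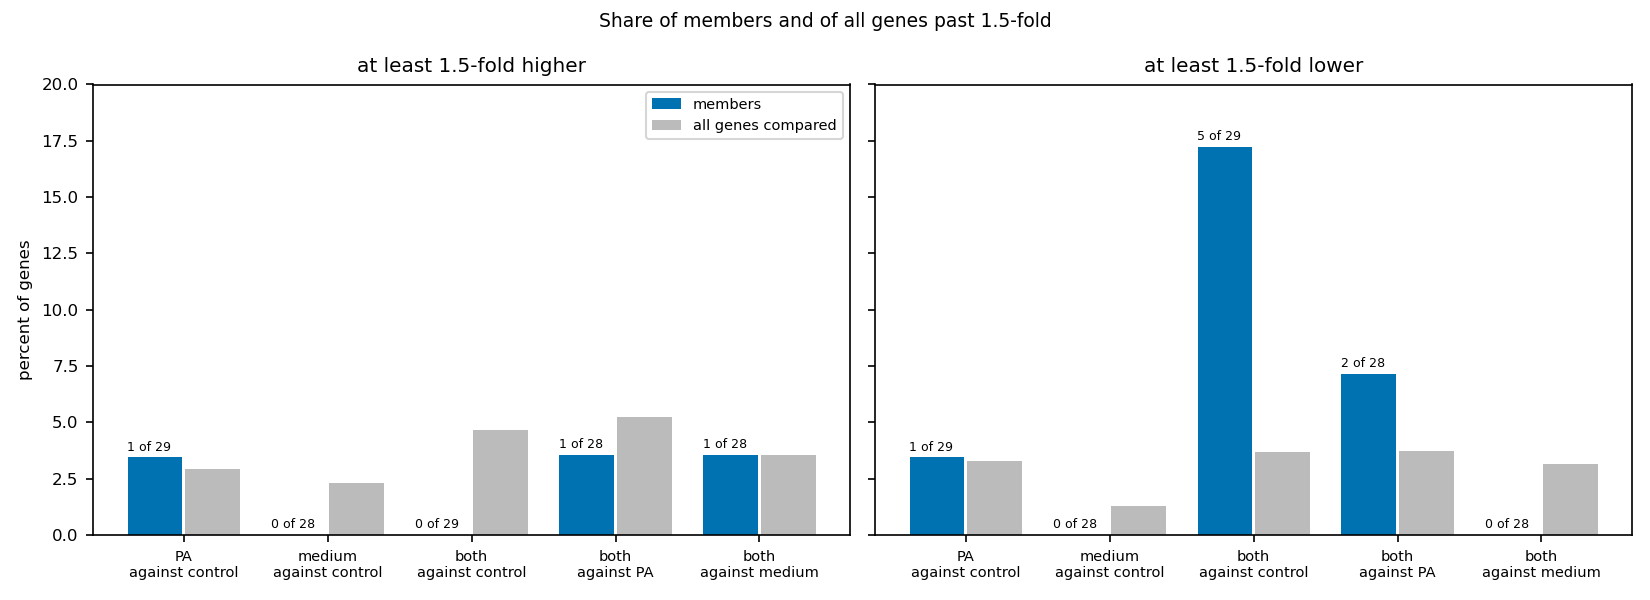
Percent of genes at least 1.5-fold higher (left) or lower (right) in each of 5 comparisons, for the members (blue, counts above the bars) and for all genes compared (grey); "medium" is ADSC medium and "both" is PA and ADSC medium. The members' bar is furthest from the grey bar for genes lower in both against control, 5 of 29.

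The medians of the members lay below 0 in all 5 comparisons, though that of both treatments against PA turned to 0.02 with the 75th percentile scaling. Against control they were -0.20 for PA, -0.12 for ADSC medium and -0.20 for both treatments. For both treatments they were -0.06 against PA and -0.12 against ADSC medium, while the medians of all genes were between -0.02 and -0.01. With normexp, PA against control had -0.064, and PA and ADSC medium against control -0.071. By family, PA against control had medians of -0.16 for Wnt, -0.21 for Fzd and -0.39 for Sfrp genes. ADSC medium against control had -0.13, -0.14 and 0.05 in the same order.

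**Figure D3:**
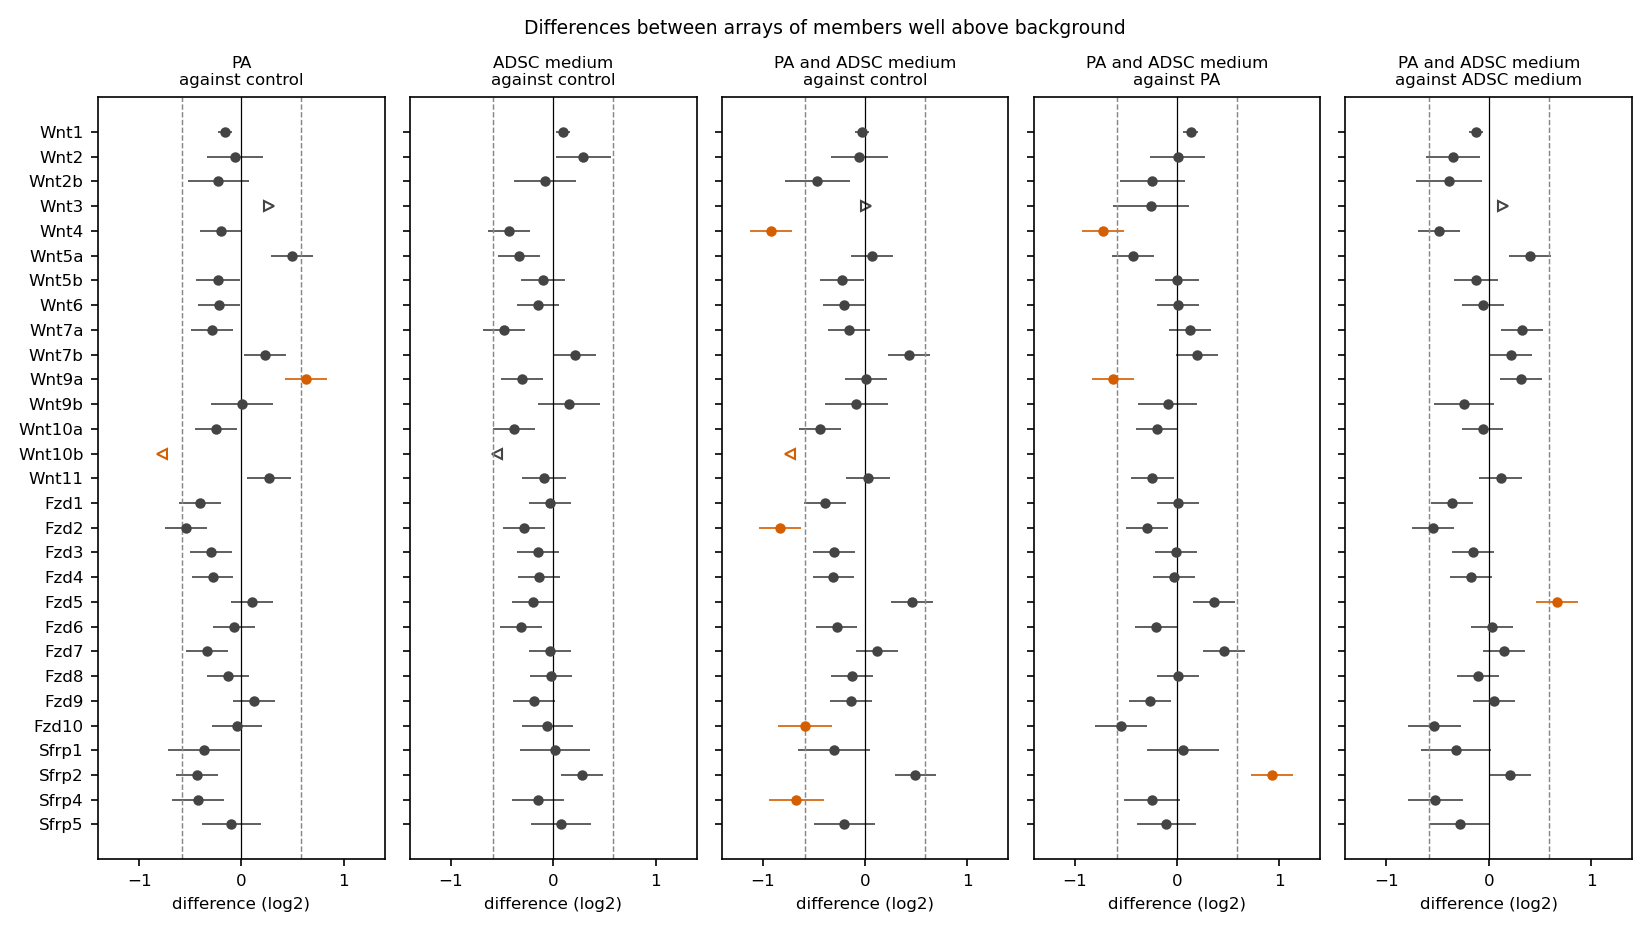
Difference in level (log2, horizontal axis) of each member well above background on at least 1 array, in the 5 comparisons; bars show the scanner software's error estimate, dashed lines stand at 1.5-fold, orange marks members past them, and open triangles are lower bounds. Most members lie between the lines in every comparison, and Wnt4, Wnt9a and Sfrp2 lie outside them in PA and ADSC medium against PA.

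The size of the differences can be set against the error of the array measurement, which covers neither cultures nor RNA extraction. For probes printed on 10 spots of an array, differences between single spots had an SD of 0.132 where the level was 5 to 7, 0.0799 where it was 7 to 9 and 0.286 where it was below 3. The scanner software's own error estimate for a difference was 0.20 to 0.22 for most members and 0.24 to 0.27 for Fzd10 and Sfrp4. It was 0.45 to 0.62 for Wnt10b in its comparisons with control, and the values of Wnt10b are the least certain of the genes past 1.5-fold. Wnt1, the founding member of the family, was printed on 10 spots, and its mean log2 intensity before normalization was 4.57 ± 0.159 (SD of 10 spots) in the control and 4.66 ± 0.0838 (10 spots) with PA. With ADSC medium it was 4.66 ± 0.0717 (8 spots), and with both treatments 4.67 ± 0.102 (10 spots). The control array had the widest spread of spots. Before normalization the control mean was the lowest of the 4, whereas after it the PA array was the lowest.

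Among the ligands, Wnt9a and Wnt4 differed the most on probes well above background on every array. Wnt9a, a ligand with a known part in joint formation (chr11:59146696-59146755, plus strand), had levels of 7.76 on the control array, 8.39 with PA, 7.45 with ADSC medium and 7.77 with PA and ADSC medium. The PA array was the highest, and the array with both treatments lay level with the control. PA against control was 0.63 (1.55-fold higher), and PA and ADSC medium against PA was -0.62 (1.54-fold lower). Both differences rest on the same PA array, and with normexp they were 0.51 and -0.51, short of 1.5-fold. A second Wnt9a probe was not well above background on any array.

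Wnt4, a ligand needed for kidney tubules and the female reproductive tract, had levels of 6.85 in the control, 6.65 with PA, 6.42 with ADSC medium and 5.94 with PA and ADSC medium. The array with both treatments was the lowest and the control the highest. The difference from control was -0.92 (1.89-fold lower) and that from PA -0.72 (1.65-fold lower). ADSC medium alone differed from control by -0.43 and PA alone by -0.20. With normexp the first 2 values were -0.54 and -0.39, neither past 1.5-fold.

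Wnt10b, a ligand that favours bone formation and restrains fat cell formation, was the other ligand past 1.5-fold (chr15:98602518-98602577, minus strand). Its level was 2.85 on the control array, where it was well above background, and 1.32, 2.23 and 1.95 with PA, with ADSC medium and with both, where it was not. Compared with the control it was therefore lower by at least 1.72-fold with PA, 1.46-fold with ADSC medium and 1.67-fold with both. Only the control array measured the gene, at a level of 2.85. The error estimates of these 3 differences, 0.62, 0.45 and 0.48, are close to the bounds of -0.78, -0.55 and -0.74. With normexp the values for PA and for both treatments against control were -0.11 and -0.04.

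Wnt3, a ligand of embryonic axis formation, showed the converse pattern near the detection limit. Its levels were 0.66 in the control and 0.96 with ADSC medium, not well above background, and 2.69 with PA and 2.44 with both, where it was. By this probe the 2 arrays with PA thus measured it and the 2 without did not. A second Wnt3 probe had 0.06, 2.17, 0.04 and 0.99 and was not well above background on any array. The detection limit was 2.43 in the control and 2.30 with ADSC medium, so the bounds are small: the difference was at least 0.27 for PA against control, 0.01 for both against control and 0.14 for both against ADSC medium.

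Wnt5a, the best known ligand of the branch without β-catenin, had levels of 6.71, 7.21, 6.38 and 6.78 in the control, with PA, with ADSC medium and with both. PA was again the highest array, by 0.49 over control, which is under 1.5-fold. The intron-spanning Wnt5a probe printed above had 3.48, 3.92, 3.64 and 3.75, and a PA difference of 0.44. For ADSC medium against control the 2 probes took opposite signs, -0.34 and 0.17.

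The other ligands stayed under 1.5-fold in all 5 comparisons. Wnt7a, which patterns the limb and acts on brain vessels, had levels of 8.59, 8.30, 8.11 and 8.43 in the order control, PA, ADSC medium and both, so the control was highest and ADSC medium lowest, by -0.48. Its paralog Wnt7b had 5.83, 6.06, 6.03 and 6.25, the control being the lowest. Wnt10a, related to Wnt10b, had 7.04, 6.79, 6.65 and 6.59, with the control highest. Wnt6 had 7.31, 7.10, 7.16 and 7.11, and its second probe 6.86, 6.58, 6.48 and 6.42, both with the control highest. Wnt11, a ligand of tissue movements in embryos, had 5.22, 5.49, 5.13 and 5.25. Wnt5b had 4.99, 4.76, 4.89 and 4.76. Both stayed under 1.5-fold, as did Wnt6, Wnt7b and Wnt10a.

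The low ligands included those known from liver endothelium. Wnt2, a Wnt of the liver endothelium, had 3.51, 3.45, 3.80 and 3.45, with the array of ADSC medium alone highest. Wnt9b, of the same source, had 3.16, 3.16, 3.31 and 3.07. Wnt2b had 3.43, 3.21, 3.36 and 2.97, and Wnt1 had normalized levels of 4.66, 4.50, 4.76 and 4.63. At these levels the SD of a difference between single spots was 0.231, and no difference of these 4 ligands reached 1.5-fold. For Wnt1, printed on 10 spots, the scanner software's error estimate for a difference was smaller, 0.07.

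Among the probes that represent the receptors, the largest difference was in Fzd2, a receptor that binds Wnt5a among other ligands. Its levels were 12.05 in the control, 11.50 with PA, 11.76 with ADSC medium and 11.21 with both. The 2 arrays with PA were the lowest, and each treatment stood below the control. PA against control was -0.54, ADSC medium against control -0.29, and both against control -0.83 (1.78-fold lower), which equals the sum of the single differences to within 0.003. A second probe had 5.70, 5.36, 5.43 and 4.80 and differences of -0.34, -0.27 and -0.90. By that probe the difference of both treatments minus the sum of the single differences was -0.29. Fzd2 was the 1 member still past 1.5-fold against control with normexp.

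Fzd7, a close relative of Fzd1 and Fzd2, had probes that disagreed. The probe without the shared bases had levels of 8.33, 7.99, 8.30 and 8.45, with PA lowest and both highest. The probe printed above, which shares 42 bases with the Fzd2 probe, had 8.49, 7.81, 8.09 and 7.59, with the control highest and both lowest. For both treatments against control these gave 0.12 and -0.90, the second being close to the -0.83 and -0.90 of the Fzd2 probes. For both against PA they gave 0.46 and -0.22. The direction for Fzd7 therefore depends on the probe in each comparison with the combined treatment, and in PA against control both were below 0 (-0.34 and -0.68).

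**Figure D4:**
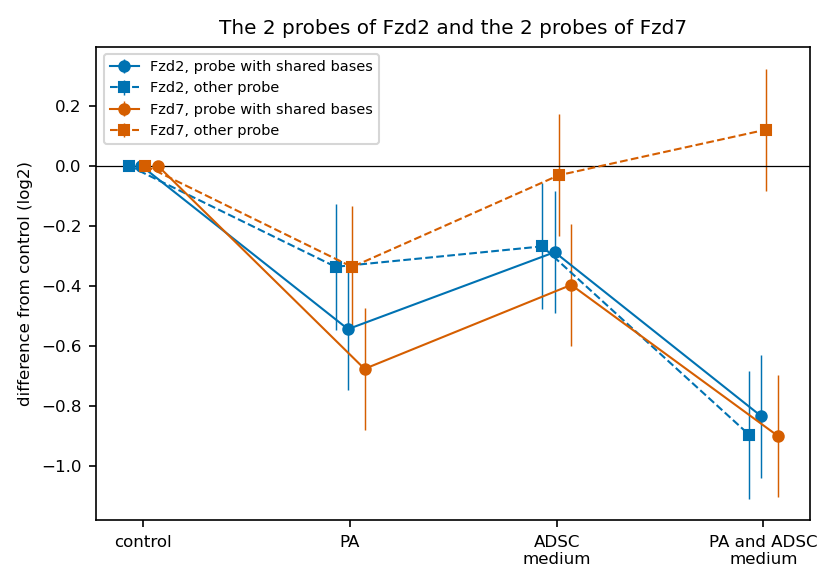
Level relative to the control array (log2, vertical axis) of the 2 Fzd2 and 2 Fzd7 probes on the 4 arrays (horizontal axis), 1 line per probe, with bars for the scanner software's error estimate. The Fzd7 probe that shares bases with Fzd2 runs with the Fzd2 probes down to -0.90 in the array with both treatments, while the other Fzd7 probe stands at 0.12.

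Fzd1 had levels of 10.22, 9.82, 10.19 and 9.83, and the 2 arrays with PA lay lower than the 2 without. The PA differences were -0.41 without ADSC medium and -0.36 with it, both under 1.5-fold. Fzd4, the receptor for Norrin as well as for Wnt ligands, had 10.00, 9.72, 9.87 and 9.69, likewise lower with PA in both pairs. Fzd6 had 8.72, 8.65, 8.41 and 8.44, lower with ADSC medium in both pairs. Fzd3, with Fzd6 a receptor of planar polarity, had 6.48, 6.19, 6.33 and 6.17, though 2 other probes gave higher levels with PA (4.77 against 4.68, and 5.45 against 5.32).

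Fzd5, a receptor of the intestinal crypt (chr1:64779196-64779255, minus strand), was highest with both treatments. Its levels were 7.06 in the control, 7.16 with PA, 6.86 with ADSC medium and 7.52 with both. Both against ADSC medium was 0.66 (1.58-fold higher), and 0.41 by a second probe with levels of 5.23, 5.04, 5.33 and 5.74. The array with both treatments was the highest by either probe, but only the first passed 1.5-fold, and with normexp it was 0.43.

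Fzd10, a receptor related to Fzd4 and Fzd9 (chr5:129108855-129108914, plus strand), had levels of 4.13, 4.09, 4.08 and 3.54. The first 3 arrays lay together and the array with both treatments lay apart. Its difference from control was -0.59 (1.51-fold lower), just past the threshold, and -0.08 with normexp. A second Fzd10 probe was not well above background on any array, and the same held for second probes of Wnt2b, Wnt5b and Sfrp1. Fzd9 had 6.07, 6.19, 5.88 and 5.93. The probes of Fzd8 disagreed, with 6.14, 6.00, 6.12 and 6.01 by 1 probe and 4.43, 4.66, 4.58 and 5.05 by the other, so that both against control was -0.13 or 0.62.

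Among the inhibitors, Sfrp2 stood higher with ADSC medium. Sfrp2, a secreted modulator made by fibroblasts and other stromal cells (chr3:83577864-83577923, plus strand), had levels of 7.59 in the control, 7.16 with PA, 7.88 with ADSC medium and 8.08 with both. The 2 arrays with ADSC medium lay above the 2 without. Both against PA was 0.93 (1.90-fold higher), or 0.71 with normexp, while ADSC medium against control was 0.28. Some marker lists of other cell types also had higher sums on the arrays with ADSC medium. The arrays did not separate in this way for the endothelial list or the hepatocyte list. Their sums were 900, 1118, 1006 and 1342, and 17, 24, 21 and 19, in the order control, PA, ADSC medium and both. The stellate or myofibroblast list had lower sums on the arrays with ADSC medium, 150386, 138770, 131108 and 128834 in that order. For ADSC medium against control, 1 of its 8 markers with a value was lower (Acta2) and 7 neither. Of 9 adipose stromal cell and adipocyte markers 5 were well above background, and the summed intensity of the list was 14843 in the control, 14253 with PA, 20863 with ADSC medium and 21487 with both. Not all 5 ran that way: for ADSC medium against control 2 were at least 1.5-fold higher and 3 neither, and Pparg was lower (8.73 against 9.19). Adipoq, Plin1, Lep and Dpp4 were not well above background on any array. In the same order of arrays, the sums were 2280, 2081, 4531 and 5727 for the biliary or epithelial list and 862, 826, 1214 and 1375 for the macrophage list. These lists were mixed too, and the higher sums were carried largely by 1 gene each, the brightest of its list on every array. Spp1 had levels of 10.05, 10.16, 11.70 and 12.20, and Cd14 had 9.07, 8.80, 9.81 and 10.11. For ADSC medium against control, 2 of 4 biliary markers were at least 1.5-fold higher (Spp1 and Sox9), 1 was lower (Krt7, 8.31 against 9.19) and 1 neither. Of 5 macrophage markers only Cd14 was higher (9.81 against 9.07) and 4 were neither, with Lyz2 at 7.11 against 7.48. The part of any of these markers in the Sfrp2 values was not tested.

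Sfrp4 (chr13:19724488-19724547, plus strand), an inhibitor with a known part in bone, had levels of 4.29, 3.86, 4.13 and 3.61. The control was highest and the array with both treatments lowest. Both against control was -0.67 (1.59-fold lower), and -0.11 with normexp. Sfrp1 had 2.99, 2.63, 3.01 and 2.69, lower on the 2 arrays with PA, but its error estimate for a difference was 0.34 to 0.35. Sfrp5 had 3.40, 3.30, 3.48 and 3.19, under 1.5-fold in all 5 comparisons.

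The Dkk genes gave no value to compare. Dkk1, itself a target of β-catenin signalling, had its highest level, 1.14, with PA, and was well above background nowhere. Dkk3, the most distant relative of the family, had 1.47, 1.75, 1.64 and 1.48. Differences between values at this level were not read.

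Whether the treatments combined by simple addition was asked by setting the difference of both treatments against the sum of the single differences, for the 27 members well above background on all arrays. For 2 of 27 (7.41%) the 2 quantities were at least 1.5-fold apart, beside 6.71% of 17355 genes, a share near the background. The median distance was 0.153 for members and 0.152 for all genes. The 2 members were Sfrp2 (0.64 above the sum) and Wnt7a (0.61 above). Fzd5 (0.56) and Fzd10 (-0.49) came next. With 1 array per condition this quantity has no error of its own.

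The other genes of the pathway were taken from 7 lists. Their counts stand beside these shares of all genes, higher and then lower. PA against control had 2.92% and 3.27%, ADSC medium against control 2.31% and 1.29%, and both against control 4.68% and 3.67%. Both against PA had 5.25% and 3.72%, and both against ADSC medium 3.54% and 3.14%. In lists this short, 1 or 2 genes decide the share. Of 10 genes of Wnt secretion and co-receptors, 8 had a value and 0 differed by 1.5-fold in any comparison, with medians from -0.20 to 0.01; they include Porcn, which attaches the lipid to Wnt, Wls, its carrier, and Lrp5 and Lrp6. Of 14 other extracellular inhibitors and their receptors, 10 had a value, and only Wif1, which binds Wnt ligands directly, passed, at 0.70 for both against PA and 0.09 with normexp. Of 9 R-spondins, receptors and Frizzled-degrading ligases, 7 had a value in at least 1 comparison, and Lgr6 and Rspo2 passed. Lgr6, a receptor for R-spondins, had levels of 5.35, 2.34, 6.61 and 6.71. The PA array, on which this Lgr6 probe was not well above background, stood apart from the other 3. By this probe both against PA was 4.38, or 1.28 with normexp. The PA value of 2.34 lay above that array's lowest flagged level of 2.07 and was used as it stood, so 4.38 is not a bound. A second probe, well above background on all 4 arrays, had 4.70, 3.63, 5.49 and 5.68 and gave 2.06. The value of 4.38 therefore holds for the first probe only and rests on a dim PA value. In this list 1 gene was lower with PA against control, 1 higher with ADSC medium against control and 1 higher with both against control, each time Lgr6. Rspo2, a ligand that raises Frizzled at the membrane, was at -0.81 for both against PA, or -0.15 with normexp. A second Rspo2 probe was not well above background on any array.

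Inside the cell, 24 of 25 genes of the β-catenin cascade were on the array and 23 had a value. With PA against control 0 were higher and 2 lower, Axin2 and Frat2, beside 2.92% and 3.27% of all genes. With both against PA 2 were higher and 0 lower, the same pair, beside 5.25% and 3.72%. These comparisons share the PA array. Axin2, a scaffold of β-catenin breakdown and a common readout of the pathway, had levels of 6.19, 4.88, 6.33 and 5.76. PA was the lowest array, 2.48-fold below control (-1.31), and both lay 1.84-fold above PA. With normexp these differences were -0.66 and 0.44. Frat2, which binds the kinase Gsk3, had its lowest level with PA and its highest, 9.82, with both. It differed by -0.68 for PA against control, by 0.94 for both against control, and was 3.06-fold higher for both against PA. For both against control and for both against ADSC medium it was the 1 gene of the cascade past 1.5-fold, higher in each. Of all genes, 4.68% and 3.54% were higher in these comparisons. For ADSC medium against control 0 of 23 passed, beside 2.31% of all genes higher and 1.29% lower.

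Of 16 nuclear effectors all had a value. Pygo1, a partner of β-catenin in the nucleus, had levels of 4.18, 5.15, 3.73 and 3.10, highest with PA. It differed by 0.97 for PA against control and by -2.05 for both against PA. With normexp PA against control was 0.29 and both against PA -0.56. Lef1, a DNA-binding partner of β-catenin, was at 0.80 for both against ADSC medium, or 0.16 with normexp. Tle2, a corepressor, was at -0.59 for PA against control, or -0.50 with normexp. Counted over the list, 1 was higher and 1 lower for PA against control, beside 2.92% and 3.27% of all genes. For ADSC medium against control it was 0 and 0, beside 2.31% and 1.29%. For both against control it was 0 and 1, beside 4.68% and 3.67%. For both against PA it was 0 and 1, beside 5.25% and 3.72%. For both against ADSC medium it was 1 and 1, beside 3.54% and 3.14%.

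Of 20 Wnt target genes 15 had a value, and 5 (Nkd1, Sp5, Lgr5, Notum and Dkk1) were not well above background on any array. With PA against control 0 were higher and 2 lower, Axin2 and Ccn5 (-0.75), beside 2.92% and 3.27% of all genes. With both against control 2 were higher, Cd44 (0.61) and Fosl1 (0.69), and 0 lower, beside 4.68% and 3.67%. With both against PA only Axin2 was higher, beside 5.25%, and with both against ADSC medium only Lef1, beside 3.54%. With ADSC medium against control 0 of 15 passed in either direction, beside 2.31% and 1.29%. The medians of the target genes lay between -0.03 and 0.12 over the 5 comparisons. Of 23 genes of the planar polarity and calcium branch, all had a value. With PA against control Celsr1 (0.75, or 0.15 with normexp) was higher and Daam2 (-0.71, or -0.43 with normexp) lower, beside 2.92% and 3.27% of all genes. The same 2 genes passed for both against control (0.81 and -0.65), beside 4.68% and 3.67%. There normexp gave 0.14 and -0.38, short of 1.5-fold. In turn, 0 of 23 passed for ADSC medium against control, beside 2.31% and 1.29%, or for both against PA, beside 5.25% and 3.72%. For both against ADSC medium, Prickle1 was higher (0.66) and Vangl1 (-0.62) and Nfatc4 (-0.62) were lower, beside 3.54% and 3.14%. With normexp these genes were at 0.43, -0.56 and -0.50, none past 1.5-fold.

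**Figure D5:**
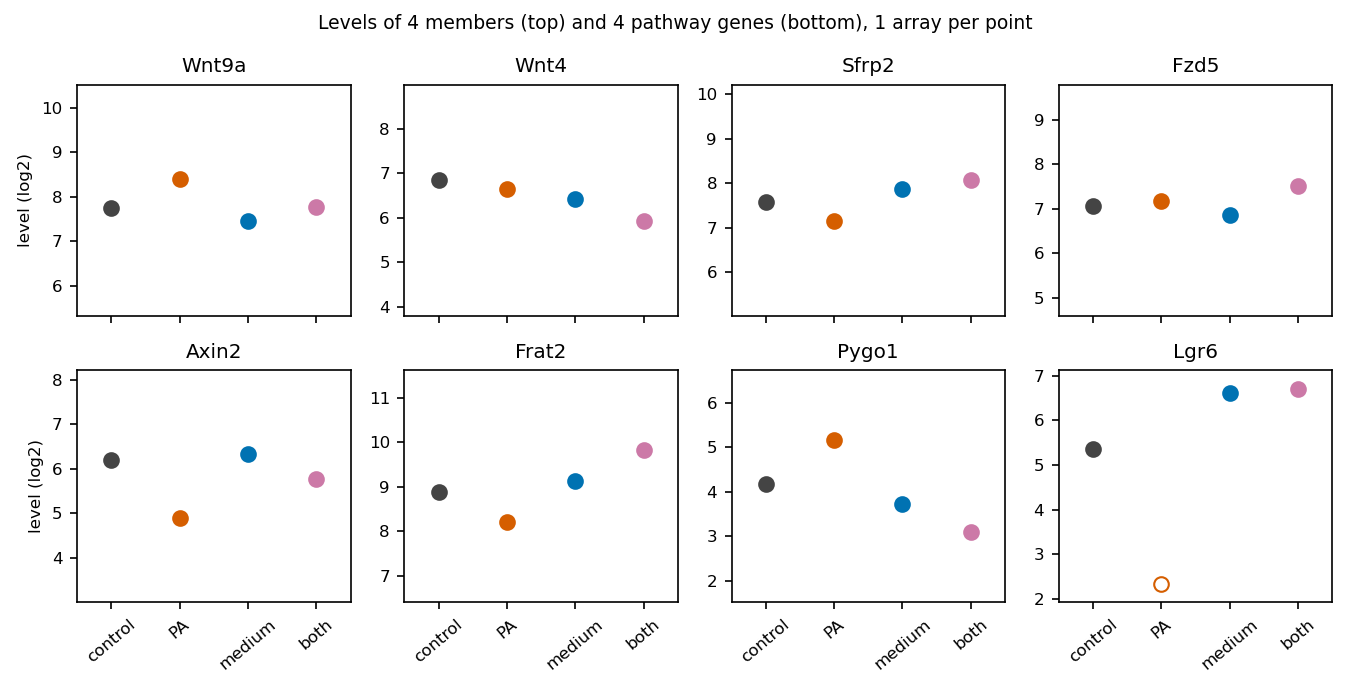
Levels (quantile-normalized log2 intensity, vertical axis) of 4 members (top) and 4 other pathway genes (bottom), 1 panel per gene with its own axis of equal length and 1 point per array; the open point was not well above background, "medium" is ADSC medium and "both" is both treatments. Wnt9a is highest with PA, Wnt4 lowest and Sfrp2 highest with both, and Axin2, Frat2 and Lgr6 are lowest with PA. The open point belongs to the Lgr6 probe shown, while the other Lgr6 probe was well above background on all 4 arrays.

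The authors' deposited lists hold probe names without values, and the sources used here do not state how they were chosen. The authors' deposited list of 1580 probes higher with PA than in control holds 4 of the 52 member probes (7.69%), beside 3.84% of all probes on the array. These were the probe of Wnt9a, that of Wnt3, the intron-spanning probe of Wnt5a and the probe of Dkk3. The Dkk3 probe was not well above background on any array, and the other Wnt5a probe, with a larger difference of 0.49, was not listed. The authors' deposited list of 920 probes higher with PA than with PA and ADSC medium holds 3 member probes (5.77%, beside 2.23% of all), those of Wnt9a, Wnt4 and Wnt16. The Wnt16 probe was not well above background on any array. Wnt9a was the only member in both lists, which share the PA array.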

How the data were processed

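Total RNA of IMS/N cells was measured on 4 one-colour arrays, 1 per condition, with ISOSPIN Cell & Tissue RNA extraction and Quick Amp labelling with Cy3, per the labels' protocols. Arrays of Agilent design 014868, annotated on mm9, were read under protocol GE1_105_Dec08 of Feature Extraction 12.1.1.1, per the file headers. Each deposited spot value is a processed intensity, from which the authors' software had subtracted background and trends within the array, per the file headers. Quantile normalization by the authors is stated in the series' design notes, and R 3.5.1 in the submitters' processing notes. Other deposited files are a pair of lists of probe names by the authors, with no values.

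Here control spots and outlier spots (82 to 104 an array) were left out, deposited intensities were taken to log2, spots of a probe averaged, and arrays quantile-normalized in R 4.3.3 with limma 3.58.1 and, for reading, data.table of version 1.17.8; later steps used Python 3.11.15, numpy 2.4.6, pandas 2.3.3 and matplotlib 3.10.9. Of 41174 probes 28 without a value on all arrays were left out, and 28680 were named through RefSeq accessions. For a gene with several probes the one with the highest mean was used. A gene entered a comparison when either array, or both, showed it well above background. Where only 1 array measured it, the dimmer value was raised, if lower, to that array's lowest level flagged so (2.43 control, 2.07 PA, 2.30 ADSC medium, 2.11 both). The difference from a raised value is written "at least". A dim value above that level, as for Lgr6 with PA, was used as it stood. Genes whose bound pointed the other way were left out. All members are accounted for, and genes of the pathway lists were named when at least 1.5-fold apart in any comparison. The members and lists were chosen with earlier results of these data known. No test was run, since each condition had 1 array, and the counting of calls was tested on simulated data. The alternatives were another scaling (75th percentile), the normexp background (offset 50), other filters on dim probes, the mean of a gene's detected probes, all spots kept, and a 2-fold threshold.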

Additional observations from a re-analysis of the deposited data

Results flagged for a closer look

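In 3 members a treatment differed in direction with and without the other one, each difference being larger than 2 SDs of the noise between spots at the mean level of the gene. That noise leaves out cultures and is smaller than the scanner software's error estimate of about 0.20 for each difference, about the size of the smaller values for Fzd5 and Sfrp2. The level of Fzd5 lies near a limit between noise classes, and with the SD of 0.132 for levels of 5 to 7 its -0.20 is within 2 SDs. Fzd5 was lower with ADSC medium in the absence of PA (-0.20) and higher in its presence (0.36), but a second Fzd5 probe was higher in both (0.10 and 0.70). Sfrp2 was lower with PA in the absence of ADSC medium (-0.43) and higher in its presence (0.21). Wnt7a was lower with PA in the absence of ADSC medium (-0.29) and higher in its presence (0.32). Each value is the difference of 2 single arrays, and whether the pairs differ beyond the variation between cultures was not tested.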

How the results depend on the processing

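Of 90 summary values recomputed under alternatives, 67 stayed within the limits set and 23 moved; the median of both against PA, -0.06, turned to 0.02 with the 75th percentile scaling, a move within those limits. Of 568 values of single members, 506 stayed and 62 moved. With the normexp background, PA against control had 0 members higher, 0 lower and a median of -0.064; PA and ADSC medium against control had 1 lower (Fzd2) and a median of -0.071; both against PA had 0 lower, and both against ADSC medium 0 higher. Without the filter on dim probes all 37 members were compared. PA against control then had 6 higher, beside 5.92% of all genes. ADSC medium against control had 1 higher and 2 lower, beside 5.81% and 4.52%. Both against control had 2 higher, beside 7.36%. Both against PA had 2 higher and 6 lower, beside 7.01% and 6.09%. Both against ADSC medium had 3 higher, beside 6.08%. Among these calls are Dkk1, Dkk2, Wnt8a, Wnt8b and Wnt16, which were not well above background on any array. Requiring both arrays above background left PA against control with 0 lower, beside 2.80% of all genes, since Wnt10b was then not compared. The mean of detected probes gave both against ADSC medium 0 higher and 1 lower (Fzd2), beside 3.69% and 3.18% of all genes. At 2-fold, PA against control had 0 higher and 0 lower, beside 1.09% and 0.599% of all genes. Both against control had 0 lower, beside 0.422%. Both against PA had 0 higher and 0 lower, beside 1.75% and 0.507%. Both against ADSC medium had 0 higher, beside 1.26%. Except where a step's own construction shows it (fewer genes compared, a higher threshold, the normexp offset for dim probes), the cause was not tested. Without replicates, culture variation is not measured, and signal near background limits Wnt3, Wnt10b and the Dkk genes. No paired analysis was possible because each condition had 1 array.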

Other observations

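Several Wnt genes are neighbours in the mouse genome, and the arrays allow their values to be read side by side. On mm9 the probes of Wnt6 and Wnt10a lie 19.1 kb apart on chromosome 1, and both genes were highest in the control. This is not particular to these neighbours. Many other members, such as Wnt4, Wnt5b, Wnt7a, Fzd1, Fzd2 and Sfrp4, were highest there too, while others, such as Wnt7b and Wnt9a, were not. The probes of Wnt1 and Wnt10b lie 21.1 kb apart on chromosome 15, where Wnt1 was well above background on all arrays and Wnt10b only in the control. The probes of Wnt9a and Wnt3a lie 82.8 kb apart on chromosome 11; Wnt9a was highest with PA, and Wnt3a was not well above background on any array. Those of Wnt3 and Wnt9b lie 88.5 kb apart on the same chromosome. There 1 of the Wnt3 probes was well above background on the arrays with PA only, and the other on none. Wnt9b had levels of 3.16, 3.16, 3.31 and 3.07. With 4 arrays, whether neighbours vary together was not tested.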
